A study of Mus musculus with 4 samples.

Results

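Megakaryocytes, the marrow cells that shed platelets, and red cell precursors each express characteristic genes, and 33 such genes were taken from the count table of Adcy7-targeted and Rosa-targeted mouse macrophages. They were chosen by name, 21 as megakaryocyte and platelet genes and 12 as red cell genes. Of the 33 genes, 32 had a row among the 55401 genes of the table, and Ahsp, which codes for a chaperone of alpha globin, was not analysed here. The libraries held poly(A) RNA of bone marrow-derived macrophages (BMDM), cells grown from C57BL/6J marrow. Marrow cells were given CRISPR-Cas9 lentivirus on day 1, at a multiplicity of infection of 30, and were differentiated over 5 days. In 2 libraries the virus was targeted to Adcy7, the gene of an adenylyl cyclase that makes cyclic AMP (Adcy7 knockout). In the other 2 it was targeted to Rosa, a locus commonly used as a neutral site (Rosa control), so all 4 libraries came from cells that received CRISPR-Cas9 virus, and all 4 carried batch number 1. The labels do not say how many guides, mice or cultures stand behind a library, so the p-values below reflect only how far these samples spread, and that spread may be technical.

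Platelets carry receptors that bind von Willebrand factor, collagen, fibrinogen and thrombin, and they store adhesive proteins and chemokines in alpha granules. Red cell precursors fill with hemoglobin, made of alpha and beta globin chains and heme. Both lineages descend from common progenitors and use the transcription factors GATA1 and GFI1B, while KLF1 drives red cell genes.

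The libraries held 71914179 and 61782358 estimated counts in the Adcy7 knockout and 65766496 and 69874955 in the Rosa control. Levels below are CPM, counts scaled to the library total, and folds and tests come from edgeR's quasi-likelihood test over 15832 tested genes, with Benjamini-Hochberg adjustment, with an adjusted p of 0.05 as the threshold. Adcy7 itself was at 59.4 and 58.8 CPM in the knockout, against 122 and 125 CPM in the control, which on the log2 scale was a difference of -1.05 (SE 0.09, adjusted p = 4.6e-06). The comparison was broad, since 49.6% of all tested genes passed, 25.0% higher and 24.6% lower in the knockout.

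Megakaryocyte and platelet genes were mostly higher in the knockout libraries, among them the fibrinogen receptor, the von Willebrand factor receptor and von Willebrand factor, by 4.79-fold to 34.8-fold. Of the 21 platelet genes, all of which were tested, 19 were higher and 2, Rgs18 and Nfe2, were lower, beside 25.0% higher and 24.6% lower among all tested genes. At least a 4-fold rise was found for 17 of the 21, where 6.56% of all tested genes passed at that size. The groups did not overlap for any of the 21, with 19 higher and 2 lower, beside 37.4% and 37.8% of all tested genes. The median log2 fold change of the 21 was 2.86, and that of all tested genes was 0.01. In RNA of whole cultures, a change in the number of cells of a type and a change in RNA per cell cannot be told apart. Among the 12 red cell genes the 4 globin genes and Car2 were higher, while the genes of the anion exchanger (Slc4a1) and of carbonic anhydrase 1 (Car1) had no count in any library. Of these 12 genes 11 had a row and 8 were tested, of which 5 were higher, none was lower and 3 did not pass. Of the 26 genes of both lineages that passed, 24 were higher and 2 lower. The filter on low counts let 4 of the 29 tested genes through only because of their knockout libraries (Gfi1b, Klf1, Epor and Ermap), so a median or count over the tested red cell genes leans on that filter and is only a description.

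**Figure D1:**
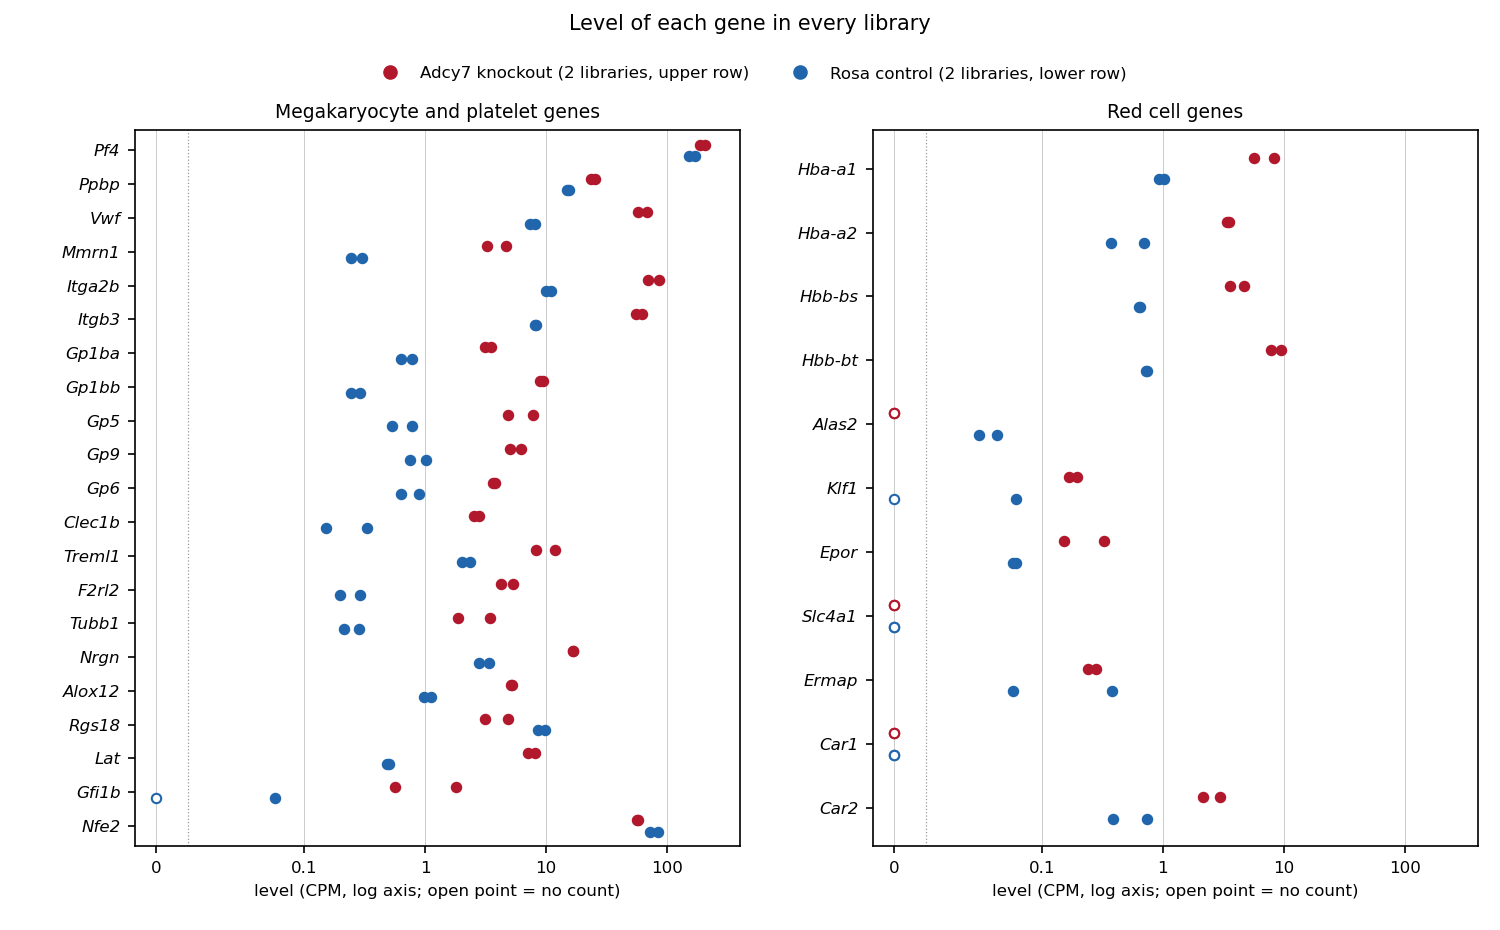
Level of each gene in CPM (log axis) in the 2 Adcy7 knockout libraries and the 2 Rosa control libraries, with platelet genes and red cell genes apart. Pf4 lies between 153 and 207 CPM in all 4 libraries, while most other genes are separated between the groups.

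The promoters of 6 genes are shown because they carry words of the kind that GATA factors bind and because these genes span the outcomes, from platelet receptors and globins that were higher to Alas2, which was close to absent. They are the 250 bases before the RefSeq start of each gene (build GRCm38.p6, 5′ to 3′ along the gene), with GATA words in capitals.
Gp1ba, chr11:70638872-70639121, plus strand: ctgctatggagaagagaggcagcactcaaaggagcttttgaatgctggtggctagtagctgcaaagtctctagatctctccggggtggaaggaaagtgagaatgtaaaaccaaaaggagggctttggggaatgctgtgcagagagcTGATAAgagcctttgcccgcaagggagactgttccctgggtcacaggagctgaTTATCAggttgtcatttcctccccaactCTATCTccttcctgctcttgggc
Gp5, chr16:30310782-30311031, minus strand: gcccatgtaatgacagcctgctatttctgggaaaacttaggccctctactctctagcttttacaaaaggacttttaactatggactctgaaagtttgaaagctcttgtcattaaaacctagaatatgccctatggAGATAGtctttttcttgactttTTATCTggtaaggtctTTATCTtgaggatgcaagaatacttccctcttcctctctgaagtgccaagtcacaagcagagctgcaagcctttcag
Gp1bb, chr16:18622404-18622653, minus strand: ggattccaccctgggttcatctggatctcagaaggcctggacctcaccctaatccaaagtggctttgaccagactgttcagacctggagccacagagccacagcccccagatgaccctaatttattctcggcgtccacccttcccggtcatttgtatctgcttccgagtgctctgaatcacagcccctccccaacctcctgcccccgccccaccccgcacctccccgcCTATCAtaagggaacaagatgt
Hba-a1, chr11:32283422-32283671, plus strand: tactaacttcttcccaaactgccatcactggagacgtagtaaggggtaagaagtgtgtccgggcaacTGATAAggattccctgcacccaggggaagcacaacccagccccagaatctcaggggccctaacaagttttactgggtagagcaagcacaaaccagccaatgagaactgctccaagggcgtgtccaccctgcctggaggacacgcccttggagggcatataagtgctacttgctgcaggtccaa
Hbb-bs, chr7:103827929-103828178, minus strand: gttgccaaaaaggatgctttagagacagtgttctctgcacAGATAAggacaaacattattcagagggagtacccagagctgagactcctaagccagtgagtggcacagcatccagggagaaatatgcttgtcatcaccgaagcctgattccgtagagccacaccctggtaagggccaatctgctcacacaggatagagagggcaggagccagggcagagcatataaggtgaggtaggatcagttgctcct
Alas2, chrX:150547167-150547416, plus strand: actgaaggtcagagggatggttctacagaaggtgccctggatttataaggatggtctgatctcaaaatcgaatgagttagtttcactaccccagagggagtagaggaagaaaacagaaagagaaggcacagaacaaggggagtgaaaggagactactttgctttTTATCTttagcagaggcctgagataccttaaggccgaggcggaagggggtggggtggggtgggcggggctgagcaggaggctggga
The motif searched on either strand was GATA with an A or a T before it and an A or a G after it, so that capitals such as TTATCT are a word read on the other strand. Windows of 300 bases, from 250 before to 50 after the start, were searched. At least 1 such word was found for 16 of 25 genes, beside 29.8% of 32851 RefSeq windows. By lineage this was 9 of 17 platelet genes and 7 of 8 red cell genes. The windows of Hba-a1 and Hba-a2 are nearly the same sequence, so their word is counted for both genes. The first base of the words lay 104, 51 and 23 bases before the start in Gp1ba and 115, 93 and 77 bases before it in Gp5. In Hba-a1 and Hbb-bs the single word lay 183 and 210 bases before the start, and in Alas2 it lay 86 bases before it. The motifs named next can overlap GATA words or each other. The word CCNCNCCC, which includes the CACCC boxes bound by KLF factors, was found in 14 of the 25 windows and in 49.5% of all windows. TGAGTCA, a core of the NF-E2 element, was found in 2 of 25 windows and in 5.2% of all. CAGGAAG, bound by ETS factors, was found in 4 of 25, with Hba-a1 and Hba-a2 again both counted, and in 13.3% of all. Genes that were higher in the knockout included some with a GATA word, such as Gp1ba, and some without. Gp9, Itga2b, Lat and Hbb-bt were higher and had none. Klf1, Epor and Ermap had 1 word each and did not pass. Whether word and fold go together was not tested. A matching word is a description of sequence and does not show that a factor was bound there.

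All 4 alpha granule genes were higher in the knockout, Pf4 and Ppbp by less than 2-fold and Vwf and Mmrn1 by more than 8-fold. Pf4, which codes for platelet factor 4, a granule chemokine, was at 207 and 189 CPM in the knockout, against 170 and 153 CPM in the control. The knockout libraries were both above the controls, but the change was small, at 1.24-fold (log2 0.31, SE 0.10, adjusted p = 0.022). It did not pass without knockout replicate 1 (adjusted p = 0.0626), without control replicate 1 (0.076), without control replicate 2 (0.255) or without the filter on low counts (0.0763). Ppbp, the precursor of the chemokine CXCL7, was at 23.4 and 25.6 CPM in knockout libraries and 14.9 and 15.5 CPM in the control. This was a 1.63-fold rise (log2 0.70, SE 0.12, adjusted p = 0.000633) with separate groups. Vwf, the gene of von Willebrand factor, which ties platelets to exposed collagen and is also made by endothelium, was at 68.5 and 57.6 CPM in knockout libraries and 8.07 and 7.31 CPM in the control. It rose 8.3-fold (log2 3.05, SE 0.14, adjusted p = 2.77e-08), and its lower knockout library was far above both controls. Mmrn1, which codes for multimerin 1, the granule protein that binds factor V, was at 3.23 and 4.71 CPM in knockout libraries and 0.243 and 0.301 CPM in the control, a 14.5-fold rise (log2 3.85, SE 0.42, adjusted p = 2.06e-05).

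Both chains of the fibrinogen receptor rose by nearly the same factor. Itga2b is the gene of integrin alpha IIb, which is best known from the megakaryocyte lineage and early progenitors. Itga2b was at 86.3 and 69.2 CPM in the knockout, against 10.1 and 11 CPM in the control. The partner of integrin alpha IIb is integrin beta 3, which also pairs with alpha V in other cells. Its gene Itgb3 was at 61.8 and 55.6 CPM in the knockout, against 8.24 and 8.10 CPM in the control. The rises were 7.44-fold for Itga2b (log2 2.90, SE 0.14) and 7.27-fold for Itgb3 (log2 2.86, SE 0.13), and a difference between these folds was not tested. Per kilobase of exon, the level of Itga2b was 14.3 CPM in knockout libraries and 1.94 CPM in the control, and that of Itgb3 was 9.95 CPM in the knockout against 1.38 CPM in the control.

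All 4 genes of the GPIb-IX-V complex, the receptor for von Willebrand factor, were higher in the knockout. Gp1ba, which codes for the chain that binds the factor and whose promoter held 3 GATA words, was at 3.48 and 3.16 CPM in knockout libraries and 0.775 and 0.630 CPM in the control, a 4.79-fold rise (log2 2.26, SE 0.32). Gp9, the gene of a small chain needed for surface display, had no GATA word in its window. It was at 6.23 and 5.08 CPM in knockout libraries and 1.02 and 0.758 CPM in the control, a 6.48-fold rise. Gp5, with 3 GATA words, was at 7.76 and 4.81 CPM in knockout libraries and 0.775 and 0.530 CPM in the control, a 9.87-fold rise. The groups were separate for each of these, although the knockout libraries of Gp5 differed more from each other than those of Gp1ba. Gp1bb, the gene of the chain joined to GPIb alpha, was at 9.40 and 9.0 CPM in knockout libraries and 0.289 and 0.243 CPM in the control. At 34.8-fold (log2 5.12, SE 0.31, adjusted p = 2.05e-07) it had the largest fold of the 4 genes. The exons of Gp1bb overlap those of Sept5, a septin gene on the same strand, which was at 37.5 and 37.7 CPM in knockout libraries and 24 and 20.3 CPM in the control. Reads from the shared exons can be assigned to either gene, and how they were split was not tested. Per kilobase of exon, the levels in the knockout were 6.42 CPM for Gp9, 4.41 CPM for Gp1bb, 2.86 CPM for Gp5 and 1.22 CPM for Gp1ba, against 1.01, 0.128, 0.297 and 0.258 CPM in the control.

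Other platelet surface receptors were low in the control and higher in the knockout. Gp6, the gene of the collagen receptor GPVI, was at 3.80 and 3.64 CPM in knockout libraries and 0.639 and 0.887 CPM in the control (4.9-fold, log2 2.29, SE 0.31). Clec1b, which codes for CLEC-2, the receptor for podoplanin, was at 2.52 and 2.78 CPM in knockout libraries and 0.152 and 0.329 CPM in the control (10.9-fold, log2 3.45, SE 0.44). The log2 fold change of Clec1b was 4.13 without control replicate 2 and 2.99 without control replicate 1. Both receptors signal through the kinase SYK, and neither gene had overlapping groups. Exons of Clec1b overlap those of Clec9a, a dendritic cell receptor gene on the same strand, which stayed at or below 0.194 CPM in every library. Treml1, the gene of the granule membrane receptor TLT-1, was at 11.8 and 8.22 CPM in knockout libraries and 2.01 and 2.36 CPM in the control (4.65-fold, log2 2.22, SE 0.25). F2rl2, which codes for the thrombin receptor PAR3, was at 5.33 and 4.27 CPM in knockout libraries and 0.289 and 0.200 CPM in the control. Its 19.9-fold rise (log2 4.32, SE 0.39, adjusted p = 5.15e-06) was the largest of these 4 receptor genes. F2rl2 lies within Iqgap2 on the opposite strand without shared exons, and Iqgap2 was lower in the knockout, at 22.9 and 22.6 CPM against 60.1 and 62.2 CPM in the control.

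Of the 5 genes of proteins inside the platelet, 4 were higher and 1 was lower. Tubb1, the gene of the beta tubulin of the marginal band, was at 1.89 and 3.46 CPM in the knockout, against 0.213 and 0.286 CPM in the control (10.5-fold, log2 3.40, SE 0.51). It was among the least even in the knockout, with replicate 1 at 0.546 times replicate 2. Nrgn, which codes for neurogranin, a calmodulin-binding protein best known from neurons, was at 16.6 CPM in both knockout libraries and at 2.81 and 3.41 CPM in the control (5.38-fold, log2 2.43, SE 0.17). Alox12, the gene of the 12-lipoxygenase of platelets, was at 5.2 and 5.15 CPM in knockout libraries and 0.988 and 1.12 CPM in the control (4.96-fold, log2 2.31, SE 0.26). Nrgn and Alox12 hardly differed between the knockout libraries. Lat, the gene of an adaptor used by GPVI and by the T cell receptor, was at 8.12 and 7.17 CPM in knockout libraries and 0.487 and 0.501 CPM in the control (15.6-fold, log2 3.97, SE 0.29). Of 12 T and natural killer cell markers 3 were tested. Cd3e and Cd3d were at no more than 0.453 CPM in any library and did not pass. Both lay above the controls in both knockout libraries, on few fragments. Pooled per group, Cd3e had 11 in the knockout and 3 in the control, and Cd3d had 10 and 4. Nkg7 was lower, at 1.63 and 1.49 CPM in the knockout against 3.76 and 3.31 CPM in the control (log2 -1.16, SE 0.26, adjusted p = 0.00381). Rgs18, which codes for a regulator that shortens G protein signals in platelets, went the other way, with 3.13 and 4.84 CPM in the knockout against 9.79 and 8.56 CPM in the control. Its log2 fold change was -1.20 (SE 0.21, adjusted p = 0.00073), and the groups did not overlap.

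The 2 transcription factor genes moved apart. Nfe2, which codes for the p45 subunit of NF-E2, a factor needed for platelet release, was at 58.2 and 57.1 CPM in the knockout, against 84.5 and 72.4 CPM in the control. It fell by 0.43 on the log2 scale (SE 0.10, adjusted p = 0.00544), and without control replicate 1 it did not pass (log2 -0.34, adjusted p = 0.115). Gfi1b, the gene of a repressor needed in both lineages, had 130 and 35 counts in the knockout, or 1.81 and 0.567 CPM. In the control it had 0 and 4 counts, or 0 and 0.0572 CPM. About 4 counts appear to stand for 1 sequenced fragment in this table, so the control held 1 fragment, and the pooled ratio was 41.6 with a 95% exact binomial counting interval of 7.06 to 1680. The adjusted p was 0.00127, and knockout replicate 1 was 3.19 times replicate 2. The fitted log2 fold change of 5.31 (SE 1.07) became 4.17 without knockout replicate 1, 5.90 without knockout replicate 2 and 4.37 without control replicate 1, and Gfi1b passed each time. Without control replicate 2 no control count remained, and the fitted value of 9.36 is then no estimate of size. Intervals of this kind, and the floor used below, rest on that fragment size and cover counting error only, since PCR copies were not told apart from separate molecules.

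**Figure D2:**
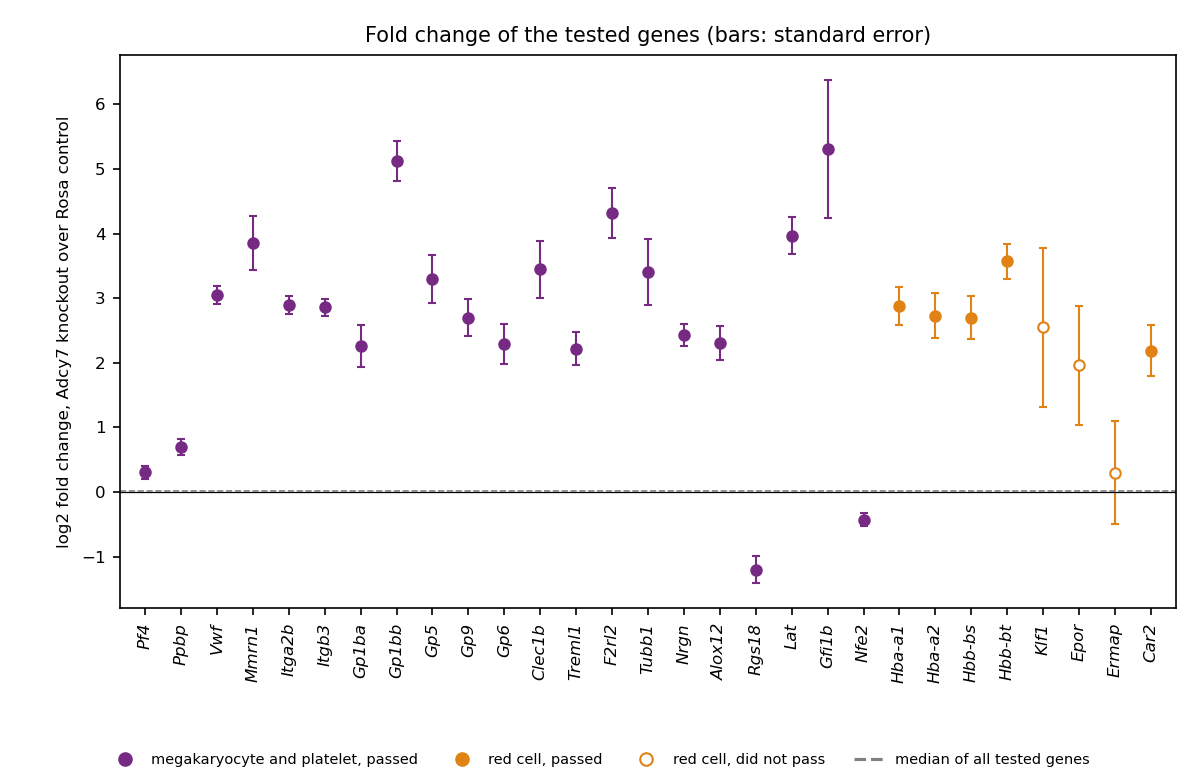
Log2 fold change (Adcy7 knockout over Rosa control) of the 29 tested genes, with bars for the standard error; filled points passed the test and open points did not. Of the platelet genes only Rgs18 and Nfe2 lie below 0, and the open points are Klf1, Epor and Ermap.

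The 4 adult globin genes were higher in the knockout. They held 26 and 20.6 CPM of the red cell sums of 28.7 and 24.3 CPM in the knockout, and 3.10 and 2.68 CPM of the sums of 4.38 and 3.22 CPM in the control. Hba-a1, which codes for alpha globin and whose promoter is shown above, was at 8.32 and 5.73 CPM in the knockout, against 1.02 and 0.930 CPM in the control. Its copy Hba-a2 was at 3.56 and 3.42 CPM in knockout libraries and 0.699 and 0.372 CPM in the control. Hba-a1 rose 7.34-fold (log2 2.88, SE 0.30, adjusted p = 1.58e-05) and Hba-a2 rose 6.63-fold (log2 2.73, SE 0.35, adjusted p = 7.69e-05). Hbb-bs, which codes for adult beta globin, was at 4.66 and 3.58 CPM in knockout libraries and 0.654 and 0.630 CPM in the control, a 6.52-fold rise. Hbb-bt, the second adult beta globin gene, was at 9.43 and 7.85 CPM in knockout libraries and 0.730 and 0.744 CPM in the control, an 11.9-fold rise (log2 3.57, SE 0.27, adjusted p = 1.21e-06). Every globin gene was higher in knockout replicate 1 than in replicate 2, and no globin gene had overlapping groups.

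Copies of a globin gene share reads, so single values are uncertain and sums are firmer. Transcripts of Hba-a1 and Hba-a2 were identical at 99.8% of 538 aligned bases, and those of Hbb-bs and Hbb-bt at 93.6% of 609. Summed alpha globin was 11.9 and 9.15 CPM in knockout libraries and 1.72 and 1.30 CPM in the control, or 10.5 ± 1.94 and 1.51 ± 0.297 CPM (SD, n = 2 each). Summed beta globin was 14.1 and 11.4 CPM in knockout libraries and 1.38 and 1.37 CPM in the control. The ratio of group means was 6.97 for alpha and 9.27 for beta globin, and a difference between these was not tested. Alpha globin stood at 0.843 and 0.800 times beta globin in the knockout and at 1.24 and 0.948 times in the control. The share of Hbb-bt in beta globin was 66.9% and 68.7% in the knockout, above 52.7% and 54.2% in the control. The control share rests on about 25 fragments of Hbb-bt and 22 of Hbb-bs pooled over its libraries, and the difference was not tested. The share of Hba-a1 in alpha globin overlapped between groups (70.0% and 62.7%, against 59.3% and 71.4%). All 4 globin genes together were at 26 and 20.6 CPM in knockout libraries and 3.10 and 2.68 CPM in the control, a ratio of 8.06.

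Other red cell genes were near or at the limit of detection, apart from Car2. Alas2, which codes for the red cell form of the first enzyme of heme synthesis, had no count in either knockout library and 2 and 3 counts in the control. Both groups lay under the floor of 3 fragments pooled per group (0.0898 CPM for the knockout, 0.0885 CPM for the control), so no fold is given. Alas2 also shares exon positions with Apex2 on the opposite strand, at 9.79 and 8.76 CPM in knockout libraries and 7.53 and 7.00 CPM in the control, and the labels name no method that keeps strand. Slc4a1, the gene of band 3, and Car1 had no count in any of the 4 libraries, which allows up to the same floors. Klf1, the gene of the red cell factor KLF1, had 12 counts in each knockout library and 4 and 0 in the control, a pooled ratio of 6.09 (95% counting interval 0.739 to 280). Epor, the erythropoietin receptor gene, had 11 and 20 counts in the knockout and 4 and 4 in the control, a ratio of 4.06 (0.81 to 39.2). Neither passed (adjusted p = 0.103 for Klf1 and 0.0982 for Epor), and both intervals include a ratio of 1, so a difference was not detectable at this depth. Ermap, which codes for a red cell membrane protein, was at 0.278 and 0.243 CPM in knockout libraries and 0.380 and 0.0572 CPM in the control, with overlapping groups (log2 0.30, SE 0.80, adjusted p = 0.781). Its direction turned without control replicate 2 (log2 -0.51). Car2, the gene of carbonic anhydrase 2, which osteoclasts also make, was at 2.16 and 2.98 CPM in knockout libraries and 0.745 and 0.386 CPM in the control, a 4.57-fold rise (log2 2.19, SE 0.39, adjusted p = 0.000831).

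Summed over the genes of a lineage, the knockout libraries lay above both control libraries in each lineage. Platelet genes summed to 596 and 537 CPM in knockout libraries and 317 and 287 CPM in the control, and red cell genes to 28.7 and 24.3 CPM in the knockout, against 4.38 and 3.22 CPM in the control. Pf4 alone held 207 and 189 CPM of the platelet sum in the knockout and 170 and 153 CPM of it in the control. The median log2 fold change was 2.86 over the 21 platelet genes and 2.63 over the 8 tested red cell genes, and a difference between the lineages was not tested. Per kilobase of exon, Pf4 was the highest of all in both groups, at 275 CPM in knockout libraries and 224 CPM in the control. In the knockout Ppbp (22.6 CPM per kilobase), Nfe2 (19.3), Itga2b (14.3), Hbb-bt (12.3) and Nrgn (11.4) followed. In the control the order after Pf4 was Nfe2 (26.3), Ppbp (14.0), Rgs18 (4.52), Nrgn (2.14) and Itga2b (1.94). Exon lengths came from the annotation of GRCm38, and with 2 libraries a group the spread does not separate close neighbours such as Hbb-bt and Nrgn. Within the knockout, 15 of 21 platelet genes (71.4%) were higher in replicate 1 than in replicate 2, beside 44.4% of all tested genes, with ratios from 0.546 for Tubb1 to 3.19 for Gfi1b.

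The other genes of both lineages did not move as a block. Counts in these lists stand beside 25.0% higher and 24.6% lower among all tested genes. Of 67 other megakaryocyte and platelet genes 61 were tested, and 30 were higher, 18 lower and 13 did not pass, with a median log2 fold change of 0.41. Serpine2, the gene of a protease inhibitor, was at 41.5 and 41.8 CPM in the knockout against 4.08 and 6.17 CPM in the control (8.17-fold). F13a1, the gene of the clotting factor XIII A chain, which monocytes and macrophages also make, was at 132 and 163 CPM in the knockout against 832 and 881 CPM in the control. It fell by 2.53 on the log2 scale, and Dok2, Tbxas1, Bin2 and Itga6, which are also expressed in myeloid cells, fell by 2.16, 1.99, 1.79 and 1.68. Whether expression in myeloid cells goes with the direction of change in this list was not tested.

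Of 55 other red cell genes 36 were tested, and 12 were higher, 4 lower and 20 did not pass, with a median log2 fold change of 0.19. Among all tested genes 25.0% were higher and 24.6% lower. Tmod1, the gene of a cap of actin filaments, rose 8.87-fold, Slc25a37, the mitochondrial iron importer gene, 3.45-fold and Tfrc, the transferrin receptor gene, 3.39-fold. The transferrin receptor and the iron importer serve many cell types. Mgst3, a glutathione transferase gene, and Gypc, the gene of glycophorin C, fell on the log2 scale, by 1.09 and 0.94. Among other heme synthesis genes, chosen here after their values were seen, Fech rose (log2 0.34), and Alas1, Alad, Urod, Uros, Ppox and Cpox did not pass. Rhag, Kel, Trim10, Trim58 and Cldn13 had no count in any library.

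Among 37 tested factors and receptors that both lineages use, 15 were higher, 10 lower and 12 did not pass, with a median log2 fold change of 0.03. Gata1, which codes for a factor that binds GATA words like those shown above, was at 4.89 and 3.30 CPM in the knockout against 0.122 and 0.215 CPM in the control, a 24.4-fold rise (log2 4.61, SE 0.48, adjusted p = 1.51e-05). Gata2, its relative in progenitors and mast cells, was at 8.91 and 8.08 CPM in the knockout against 1.17 and 1.03 CPM in the control, a 7.82-fold rise. Jak2, a kinase that signals from the erythropoietin receptor, rose 7.08-fold, and Maff, a small partner of NF-E2, rose 9.63-fold. Fli1, an ETS factor of megakaryocytes, fell by 0.80 on the log2 scale and Lmo2, a bridging protein of GATA complexes, fell by 1.88. Mef2c and Hhex fell by 1.91 and 1.42, and Runx1 rose 1.34-fold.

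**Figure D3:**
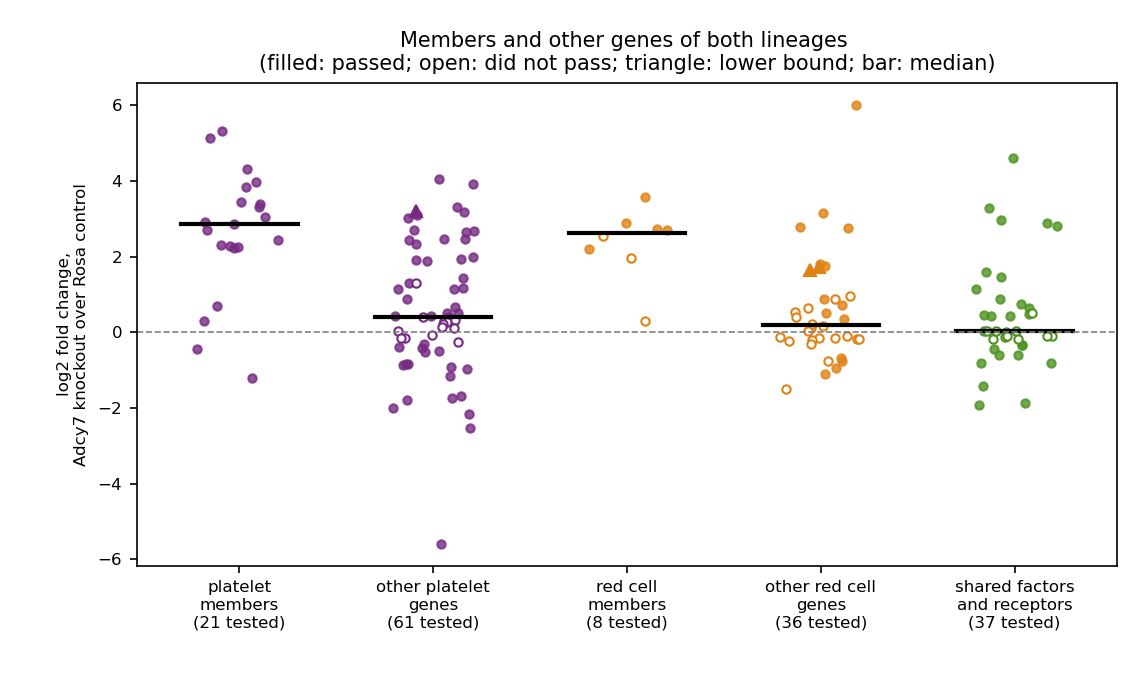
Log2 fold change (Adcy7 knockout over Rosa control) of each tested gene in the platelet and red cell groups described here and in 3 lists of other lineage genes; bars mark medians, open points did not pass, and triangles are lower bounds for genes with no control count. The bars lie at 2.86 and 2.63 for the 2 groups described here and at 0.41, 0.19 and 0.03 for the other lists.

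Markers of other blood cells also differed between the groups. The counts below stand beside 25.0% higher and 24.6% lower among all tested genes. Of 16 macrophage markers 15 were lower in the knockout and Cd68 did not pass, with sums, mostly of Lyz2, of 20300 and 20100 CPM in the knockout against 58600 and 60500 CPM in the control. Csf1r, the receptor gene for the macrophage growth factor, was at 1310 and 1170 CPM in the knockout against 1810 CPM in both control libraries, while C1qa, Mrc1 and Cd5l each had no count in 1 of the knockout libraries. Of 9 tested eosinophil markers 8 were higher, with sums of 309 and 249 CPM in the knockout against 36.6 and 32.8 CPM in the control. Of 9 tested mast cell and basophil markers 7 were higher, with sums of 120 and 114 CPM in the knockout against 38.0 and 28.7 CPM in the control, while Mcpt4, Tpsab1, Cma1 and Mrgprb2 had no count anywhere. Progenitor markers were higher for 7 of 10 tested and lower for 1, with sums of 413 and 403 CPM in the knockout against 265 and 229 CPM in the control. The knockout sums were mostly of Procr, at 339 and 323 CPM against 22.6 and 27.6 CPM in the control. The control sums were mostly of Ly6a, the lower marker, at 225 and 187 CPM against 34.7 and 37.8 CPM in the knockout. The direction of the progenitor sum thus rests on Procr. Osteoclast markers, which bear on Car2 and Itgb3, were higher for 3 of 6 tested and lower for 2, with Ctsk up 10.1-fold, Calcr at 0 in all libraries, and sums, mostly of Mmp9, of 2250 and 1870 CPM in the knockout against 2890 and 2800 CPM in the control. Endothelial and stromal markers, which bear on Vwf, were higher for 2 of 7 tested, with sums of 30.0 and 29.6 CPM in the knockout against 19.9 and 15.5 CPM in the control. The megakaryocyte list, most of whose genes are described above, was higher for 13 of 13, and the red cell list for 4 of 7 tested. The remaining lists were smaller in change or mixed, with 6 of 8 monocyte and 6 of 12 neutrophil markers lower, 6 of 7 tested B cell markers higher and 1 lower, and 4 of 7 tested dendritic cell markers higher. Of 3 tested T and natural killer cell markers, 1 was lower and none passed as higher. The part of these cell types in the platelet and red cell results was not tested.

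**Figure D4:**
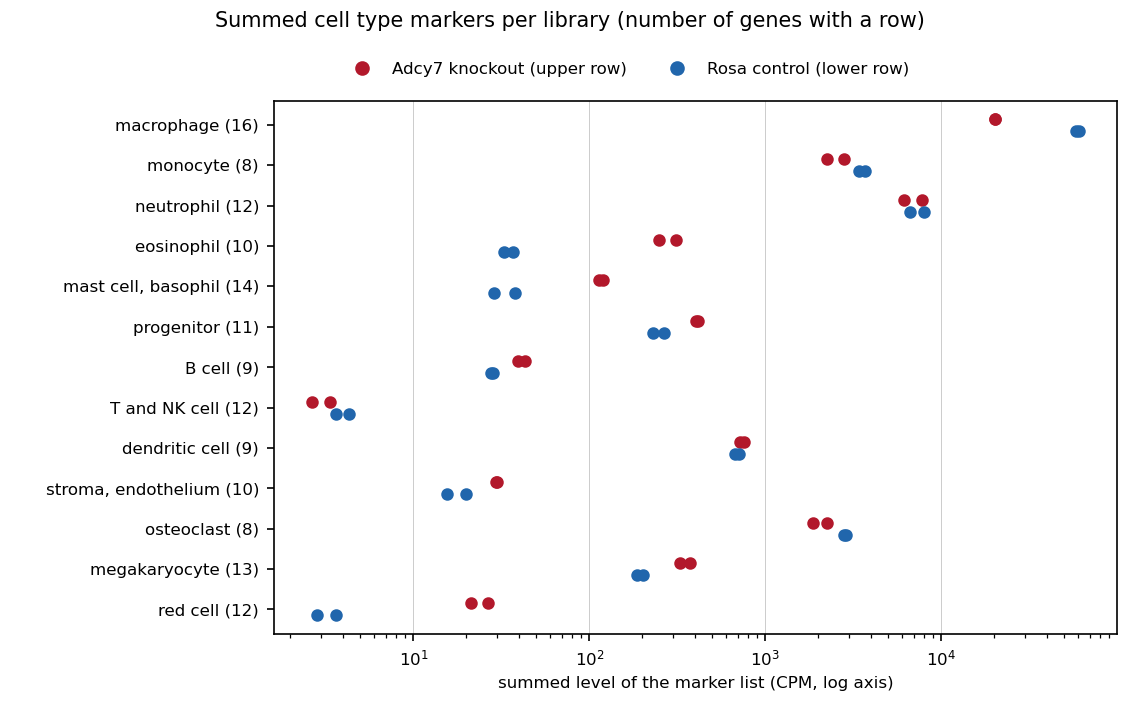
Summed level of each list of cell type markers in CPM (log axis) in each library, with the Adcy7 knockout libraries in the upper row and the Rosa control libraries in the lower row of each pair. Macrophage, monocyte, osteoclast and T and NK cell sums are lower in the knockout, and neutrophil sums overlap. Eosinophil, mast cell and basophil, megakaryocyte and red cell sums are higher, as are progenitor, B cell, dendritic cell and stromal and endothelial sums.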

How the data were processed

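RNA-seq of 2 Adcy7 knockout and 2 Rosa control libraries was used. Values were estimated counts (expected counts) per Ensembl gene as deposited, in whole numbers whose totals differ between libraries, with no sign of scaling. The tools were HISAT2, StringTie, fastp and edgeR and the build GRCm39, per the submitters' processing notes; versions, order and annotation are not given in the sources used. Between 30.54% and 32.17% of low counts (1 to 40) were multiples of 4, against 25% with no such step, so 1 fragment was taken as about 4 counts and a floor as 3 fragments (12 counts). Symbols came from a GRCm38 annotation (55141 of 55401 IDs). The column names of the knockout libraries hold KO3 and were matched to the titles by KO and replicate number. The meaning of the digit in KO3 is unknown.

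Counts as deposited were filtered with filterByExpr, TMM-scaled and tested in edgeR 4.0.16 (R 4.3.3) by the quasi-likelihood test (2 residual degrees of freedom, adjusted over 15832 genes by Benjamini-Hochberg, threshold 0.05). CPM used the deposited totals. Libraries of a group correlated at 0.9809 (knockout) and 0.9814 (control) in log2 CPM across genes, which are not independent replicates, and differed by more than sampling noise (chi-square per degree of freedom 10.64 and 6.24). Promoters came from RefSeq (GRCm38.p6) and were matched by symbol for 25 of 33 genes. No window was used for Rgs18, Slc4a1, Ahsp, Car1, Nfe2, Car2, Itgb3 or Vwf.

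All 33 genes were named. From each list of other lineage genes up to 6 with the smallest adjusted p and at least 1 CPM were named, with Gata1, Gata2, Fli1, Runx1 and Tfrc among genes named in any case. Some genes that this rule took are not reported here. Up to 3 genes with the highest CPM were open to naming from each marker list. The 33 genes and all lists were chosen with earlier results of these data known. Names outside this rule (overlapping genes, genes at 0 and heme synthesis genes) were chosen after their values were seen. Alternatives were DESeq2 1.42.0, its size factors, no filter, counts divided by 4, a replicate block, an older quasi-likelihood estimate and leaving out each library.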

Additional observations from a re-analysis of the deposited data

How the results depend on the processing

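Over 10 alternatives, 280 of 286 log2 fold changes of the 29 tested genes kept their direction and side of the threshold, and 26 genes kept both under all alternatives that gave them a value. The exceptions were Pf4, which did not pass without the low-count filter or without knockout replicate 1, control replicate 1 or control replicate 2, Nfe2, which did not pass without control replicate 1, and Ermap, which never passed and whose log2 fold change was -0.51 (adjusted p = 0.721) without control replicate 2 and 2.15 without control replicate 1. The cause was not tested. Platelet genes that passed numbered 19 to 21 of 21 and red cell genes 5 under every alternative run. Over all genes 6091 to 7852 passed, with 7263 in DESeq2. The older quasi-likelihood estimate gave 7400, and it was added after seeing the data, as were the alternatives for other lineage genes, of which 70 to 89 passed. Deviations from the group means correlated at 0.015 between libraries with the same replicate number. With 2 libraries a group the crossed value (-0.015) is the negative of this by construction and adds nothing. No shared deviation was seen, but this single value cannot settle whether the numbers pair the samples. A fit with a replicate block passed 7843 genes, 21 platelet and 5 red cell genes. With counts divided by 4, 25 of the 29 genes remained testable. Depth limits Alas2, Klf1, Epor, Ermap, Slc4a1 and Car1, each at fewer than 1 CPM. With 2 libraries a group, leaving 1 out assumes that the lone library varies like the other group.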
